A study of Mus musculus with 8 samples.

Results

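The 10 genes described here encode enzymes that modify and crosslink collagen: the lysyl oxidases *Lox*, *Loxl1*, *Loxl2*, *Loxl3* and *Loxl4*, the lysyl hydroxylases *Plod1*, *Plod2* and *Plod3*, and the prolyl 4-hydroxylase α subunits *P4ha1* and *P4ha2*. They were chosen by name from a table of 24091 genes with the genotype difference in these same libraries already known, so their genotype differences are given as a description. All 10 passed the filter on low counts, as did 15233 genes in all. RNA was sequenced from islets of 6-week-old mice on a C57BL/6 background, in 4 control and 4 mutant libraries. The controls are labelled wild-type, and whether they carry a floxed allele or Cre is not given in the sources used here. The mutants are labelled Ngn3-Cre, itgb1-/-, which the study made with a floxed *Itgb1* allele. *Itgb1* encodes the integrin β1 subunit, a receptor for extracellular matrix, and Ngn3-Cre acts in endocrine progenitors, so islet cells of other lineages keep the gene. The labels do not say that each library is a separate mouse, so the p-values measure the spread between libraries, which may in part be technical.

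Collagen is modified inside the cell and crosslinked outside it. In the endoplasmic reticulum, prolyl 4-hydroxylases modify prolines, which keeps the triple helix stable at body temperature, and lysyl hydroxylases modify lysines, which become sites for sugars and for crosslinks. Outside the cell, copper-dependent lysyl oxidases oxidise lysines and hydroxylysines so that collagen and elastin fibres become crosslinked. Both hydroxylase families need oxygen, iron and ascorbate, and *P4ha1*, *P4ha2*, *Plod2*, *Lox* and *Loxl2* are among the known targets of the hypoxia-inducible factors. In islets most fibrillar collagen comes from fibroblasts, stellate cells and pericytes rather than from endocrine cells.

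All 10 genes had a higher fitted level in the mutants, with a median log2 fold change (mutant over control) of 1.28 against 0.0015 for all genes tested. Of all genes tested, 50.2% had a higher fitted level. None of the 10 was called at an adjusted p below 0.05 with a fold change above 2 in edgeR's quasi-likelihood test, where 0% of all genes were called. The adjusted p values of the 10 genes lay between 0.219 and 0.365. With p below 0.05 before adjustment, 9 of the 10 were higher and 0 lower, and over all genes 6.8% were higher and 7.19% lower. In 5 of the 10 (*Lox*, *Loxl1*, *Loxl3*, *Plod1* and *Plod3*) every mutant library lay above every control library, which 4.4% of all genes did. Because the genes were chosen with this contrast known, nothing is read from these shares. DESeq2 called 2 of the 10, *Lox* and *Loxl3*, and 186 genes in all, at 2550 genes with an unadjusted p below 0.05. With total counts in place of TMM scaling the genes at an unadjusted p below 0.05 split into 1154 higher and 542 lower, against 1036 and 1096, and the median over all genes moved to 0.15, while all 10 genes were still higher by 0.59 or more.

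**Figure D1:**
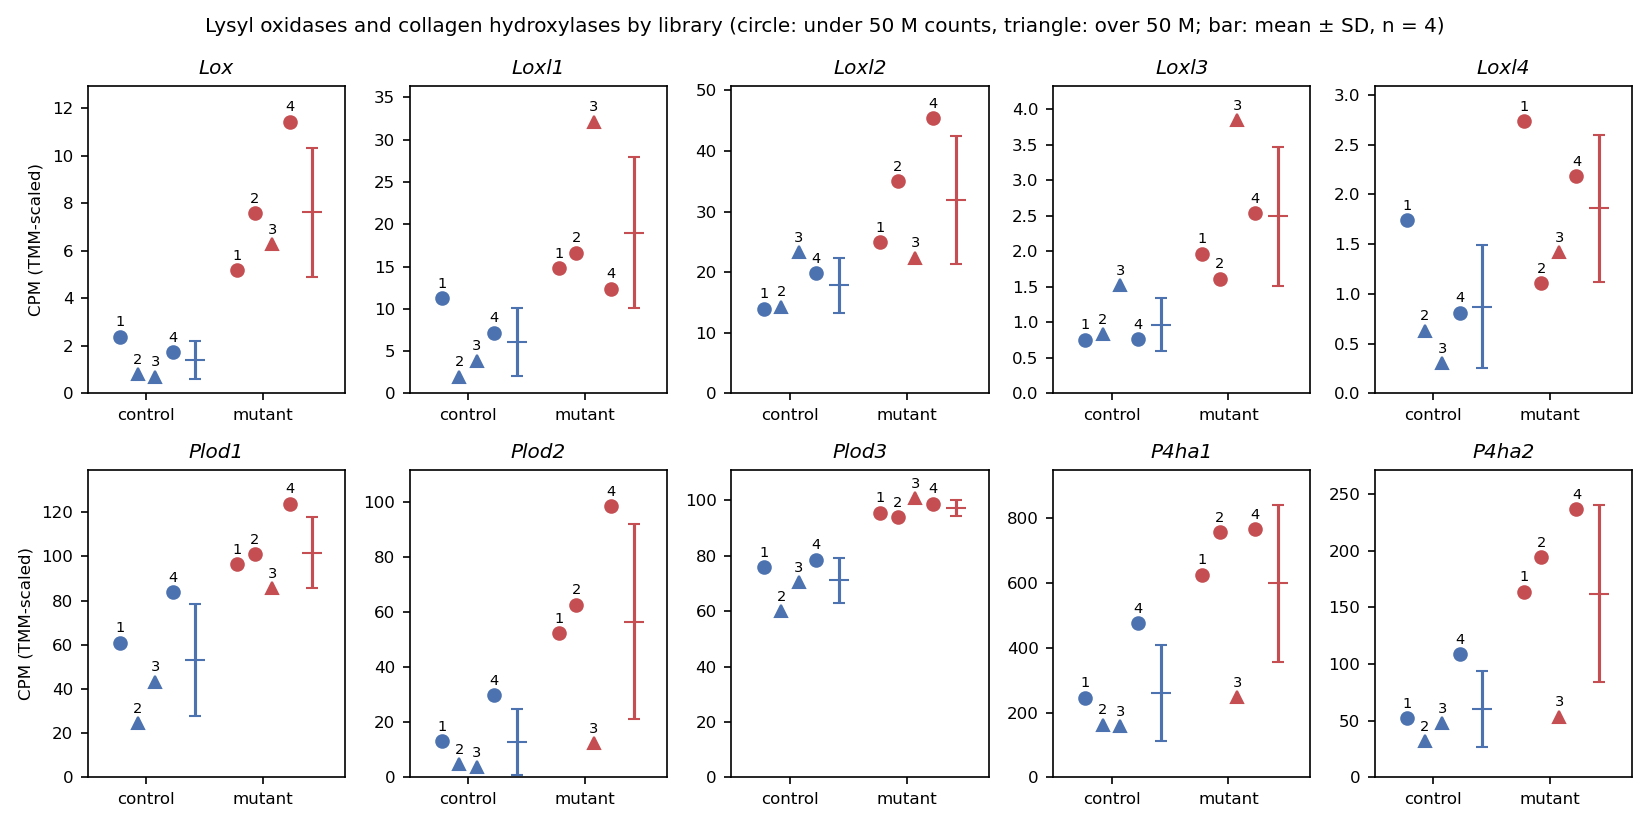
Level of each gene (CPM scaled by TMM, vertical axis) in each control and mutant library (numbered points, with mean ± SD, n = 4, at the right of each group); triangles mark the 3 libraries of over 50 M counts. For *Lox*, *Loxl1*, *Loxl3*, *Plod1* and *Plod3* the points of the 2 genotypes do not overlap, and for *Plod2*, *P4ha1* and *P4ha2* mutant 3 lies among the controls.

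The libraries held 35.1 to 67.6 M counts. Control 2, control 3 and mutant 3 held over 50 M. Controls 2 and 3, but not mutant 3, stood apart in acinar and islet endocrine markers. The summed level of 11 acinar markers was 3592 and 11120 CPM in controls 2 and 3 and 20.1 to 763 CPM in the other 6 libraries, and that of 13 islet endocrine markers was 184327 and 296556 CPM against 51597 to 79226 CPM. Mutant 3 was the highest library in Schwann cell markers (75.4 CPM, against at most 51.9 CPM elsewhere). It was also highest in leukocyte markers (58.7 CPM, against at most 37.1 CPM elsewhere). *Itgb1* itself, the check of the deletion, was at 315 to 432 CPM in the controls and 193 to 266 CPM in the mutants, a log2 fold change of -0.75 (SE 0.15; adjusted p = 0.233, edgeR). The same 10 genes are therefore also given within the 5 libraries of under 50 M counts (2 controls, 3 mutants) and within the other 3 (2 controls, 1 mutant, no test).

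Among the lysyl oxidases the genotype difference was widest for *Lox*, the founding member of the family, which lies on chr18:52516060-52529867 of GRCm38 on the minus strand. *Lox* reached 2.39, 0.816, 0.703 and 1.74 CPM (counts scaled to library size with TMM factors) in the 4 controls, in the order of their numbers, and 5.18, 7.58, 6.28 and 11.4 CPM in the 4 mutants. The lowest mutant library was above the highest control library, and mutant 3, of the larger set, lay within the range of the other mutants. The means were 1.41 ± 0.799 and 7.62 ± 2.73 CPM (SD, n = 4), a ratio of 5.40. This gave a log2 fold change of 2.45 (SE 0.44). Its adjusted p was 0.219 in edgeR and 4.37e-05 in DESeq2. The difference was 1.96 (SE 0.42) over the 5 smaller libraries and 2.98 over the 3 larger ones, and 2.18 to 2.82 when each library in turn was left out. The gene was thinly counted in the controls, with 37 counts in the lowest library.

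*Loxl1*, which acts on elastic fibres and lies on chr9:58287723-58313212 on the minus strand, was at 11.3, 1.99, 3.88 and 7.18 CPM in the controls and at 14.8, 16.6, 32.2 and 12.4 CPM in the mutants. The groups did not overlap, but the libraries of the larger set held both ends of the range, with controls 2 and 3 lowest and mutant 3 highest. Over all libraries the log2 fold change was 1.65 (SE 0.52), with 0.66 (SE 0.23) over the smaller and 3.51 over the larger libraries. The gap between the sets was 2.79 (SE 0.51, adjusted p = 0.025, edgeR interaction test). Of the 10 genes 1 passed that test and of all genes 11.4%, so the share was near the background. The larger set has 1 mutant library, so the library set and mutant 3 itself cannot be told apart. Without mutant 3 the log2 fold change of *Loxl1* was 1.27.

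*Loxl2*, an oxidase with scavenger receptor domains that acts on collagen IV of basement membranes among other substrates, lies on chr14:69609167-69695834 on the plus strand. It was at 14, 14.3, 23.3 and 19.8 CPM in the controls and at 24.9, 35, 22.4 and 45.3 CPM in the mutants. Mutant 3 was just below control 3, so the groups overlapped, and the other 3 mutants were above all controls. *Loxl2* had a log2 fold change of 0.84 (SE 0.26), 1.05 over the smaller libraries and 0.29 over the larger ones.

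*Loxl3* and *Loxl4* were the least abundant of the family. *Loxl3* (chr6:83034224-83052564, plus strand) was at 0.752, 0.835, 1.52 and 0.763 CPM in the controls and at 1.97, 1.61, 3.84 and 2.54 CPM in the mutants. Every mutant was above every control, by a narrow margin between control 3 and mutant 2, and the log2 fold change was 1.36 (SE 0.37). DESeq2 gave it an adjusted p of 0.048. *Loxl3* was thinly counted too, with 29 counts in its lowest library. Counting did not use strand, and 11.6% of the exon bases of *Loxl3* are shared with *Htra2* on the opposite strand, whose log2 fold change was -0.05. *Loxl4* (chr19:42592279-42612806, minus strand) was at 1.74, 0.631, 0.304 and 0.811 CPM in the controls and at 2.74, 1.11, 1.42 and 2.18 CPM in the mutants. Mutants 2 and 3 were below control 1, the log2 fold change was 1.12 (SE 0.52), and *Loxl4* was the gene of the 10 that was not below 0.05 before adjustment (adjusted p = 0.365, edgeR). *Loxl4* had 16 counts in its lowest library, so its level there is imprecise.

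Over the 5 lysyl oxidases together the median log2 fold change was 1.36, with 1.05 in the smaller and 1.73 in the larger libraries. Summed over the family, the level was 30.1, 18.5, 29.7 and 30.3 CPM in the controls and 49.6, 61.9, 66.1 and 73.9 CPM in the mutants, with no overlap. Fibroblasts, stellate cells and pericytes were followed by marker genes. These were *Pdgfra*, *Pdgfrb*, *Dcn*, *Lum*, *Col1a1*, *Col3a1*, *Thy1*, *Rgs5*, *Cspg4*, *Des*, *Acta2*, *Tcf21* and *Dpt*. *Col1a1* and *Lum* are also in the pathway lists below, so these markers are not independent of those lists. *Col1a1* alone had means of 54.4 CPM in the controls and 189 CPM in the mutants. The summed level of 13 such markers, none of them at 0, was 313 to 461 CPM in the controls and 679 to 789 CPM in the mutants, a ratio of 1.88 (p = 0.0286 in an exact permutation test, two-sided, and 0.15 after adjustment over the 7 marker lists, where 0.0286 is the least that 4 against 4 libraries can give). Of the 13, 11 had a higher and 2 a lower fitted level, none was called by edgeR, and 9 were higher with p below 0.05 before adjustment (6.8% of all genes). DESeq2 called 5 of the 13, all higher, and 110 of all genes as higher. The part of these cells in the lysyl oxidase levels was not tested, and in bulk islet RNA more cells of a type and more RNA per cell cannot be told apart. Schwann cell markers summed to 30.6 to 48.9 CPM in the controls and 48 to 75.4 CPM in the mutants, and endothelial markers to 772 to 819 and 714 to 892 CPM. Ductal markers summed to 310 to 1638 and 1083 to 3006 CPM and leukocyte markers to 22.2 to 33.2 and 28.6 to 58.7 CPM, with overlap between genotypes in both.

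The lysyl hydroxylases differed from each other in how much they varied between libraries. *Plod1* (chr4:147909753-147936776, minus strand), which hydroxylates lysines in the helical part of collagen, was at 60.9, 24.4, 43.4 and 83.8 CPM in the controls and at 96.5, 101, 85.5 and 124 CPM in the mutants. The highest control, control 4, was just below the lowest mutant, mutant 3. The log2 fold change of *Plod1* was 0.94 (SE 0.33), 0.56 over the smaller and 1.39 over the larger libraries.

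*Plod2* (chr9:92542223-92608427, plus strand) hydroxylates the telopeptide lysines from which the more stable crosslinks form. It was at 13.1, 4.69, 3.63 and 29.7 CPM in the controls and at 52.3, 62.7, 12.4 and 98.4 CPM in the mutants. Mutant 3 was below controls 1 and 4, whereas mutants 1, 2 and 4 were above every control. The means were 12.8 ± 12.1 and 56.4 ± 35.4 CPM (SD, n = 4), a ratio of 4.41. The log2 fold change of 2.14 had the largest error of the 10 genes (SE 0.77), and *Plod2* spread over an 8.19-fold range within the controls and a 7.95-fold range within the mutants. It was 1.72 over the smaller and 1.57 over the larger libraries.

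*Plod3* (chr5:136987019-136996646, plus strand), whose product also adds the sugars of hydroxylysine, was the steadiest of the 10. Its level was 75.8, 60.1, 70.4 and 78.5 CPM in the controls and 95.5, 93.9, 101 and 98.7 CPM in the mutants. All mutants lay above all controls, with a 1.31-fold range in the controls and a 1.07-fold range in the mutants. *Plod3* thus had a log2 fold change of 0.45 (SE 0.11), a fold change under 2. The adjusted p was 0.301 in edgeR and 0.0155 in DESeq2. Of its exon bases 11.7% are shared with *Znhit1* on the opposite strand, which had a log2 fold change of 0.25.

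The prolyl 4-hydroxylase α subunits, which carry the active site, were the most abundant of the 10 by CPM together with *Plod1* and *Plod3*. *P4ha1* (chr10:59323296-59373304, plus strand) was at 246, 162, 159 and 476 CPM in the controls and at 625, 755, 246 and 766 CPM in the mutants. Mutant 3 was at the level of control 1 and below control 4, and the other 3 mutants were above every control. *P4ha1* had a log2 fold change of 1.20 (SE 0.45), 0.98 over the smaller and 0.62 over the larger libraries. *P4ha2* (chr11:54100924-54131667, plus strand) was at 52.2, 32.1, 47.8 and 109 CPM in the controls and at 164, 194, 53.6 and 237 CPM in the mutants. Here too mutant 3 was at the level of control 1, and control 4 was highest of the controls. *P4ha2* had a log2 fold change of 1.43 (SE 0.49), 1.30 over the smaller and 0.45 over the larger libraries. The β subunit gene *P4hb*, named here for its role, was at 1400 ± 466 CPM in the controls and 1428 ± 180 CPM in the mutants (SD, n = 4). Its log2 fold change of 0.03 (SE 0.25) joins differences of opposite sign, 0.57 over the smaller and -0.54 over the larger libraries.

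**Figure D2:**
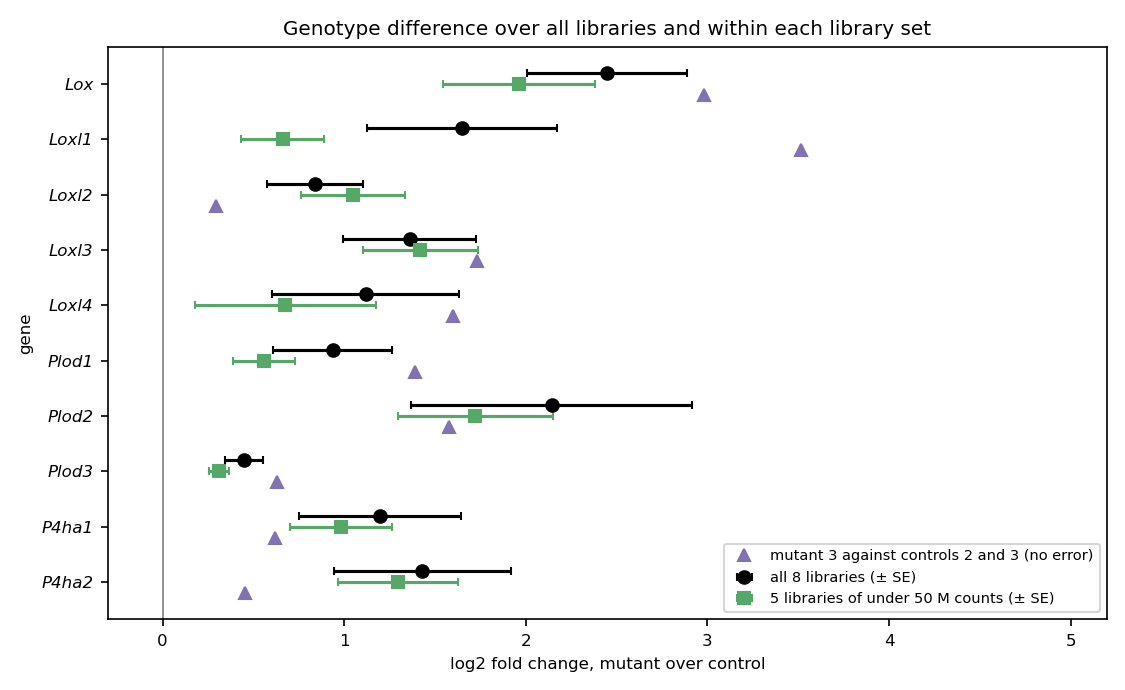
Log2 fold change (mutant over control, horizontal axis) of each gene (vertical axis) over all 8 libraries (circles, ± SE), the 5 libraries of under 50 M counts (squares, ± SE) and mutant 3 against controls 2 and 3 (triangles, no error). All values are above 0, and the gap between squares and triangles is widest for *Loxl1*, at 0.66 and 3.51.

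Promoter sequences are shown for *P4ha1*, *P4ha2* and *Plod3* because all 3 hold several copies of the core letters of the hypoxia response element. The sequences are the 250 bases before the gene start in RefSeq (GRCm38.p6), all on the plus strand, 5′ to 3′, with capitals where ACGTG or GCGTG occurs on either strand (CACGT or CACGC on the printed strand; matches that overlap would be joined). The windows are chr10:59323046-59323295, chr11:54100674-54100923 and chr5:136986769-136987018, in this order.
P4ha1: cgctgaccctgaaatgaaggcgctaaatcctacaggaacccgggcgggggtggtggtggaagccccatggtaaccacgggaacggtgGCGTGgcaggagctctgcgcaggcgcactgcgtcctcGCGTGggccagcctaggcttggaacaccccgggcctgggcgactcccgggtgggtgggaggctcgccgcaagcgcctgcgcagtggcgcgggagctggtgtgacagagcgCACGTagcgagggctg
P4ha2: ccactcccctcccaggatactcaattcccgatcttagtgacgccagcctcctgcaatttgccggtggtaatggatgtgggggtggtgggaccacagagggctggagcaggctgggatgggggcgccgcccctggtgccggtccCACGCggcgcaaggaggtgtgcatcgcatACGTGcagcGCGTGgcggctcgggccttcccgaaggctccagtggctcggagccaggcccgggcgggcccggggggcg
Plod3: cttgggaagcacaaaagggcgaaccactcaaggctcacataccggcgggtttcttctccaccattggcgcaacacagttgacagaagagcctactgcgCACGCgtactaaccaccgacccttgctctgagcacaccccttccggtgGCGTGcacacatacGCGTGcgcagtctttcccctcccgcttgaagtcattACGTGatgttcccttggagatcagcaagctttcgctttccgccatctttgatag
*P4ha1* and *P4ha2* have 3 matches each and *Plod3* has 4. Promoter windows were also taken for 2 other members, *Plod1* and *Loxl4*, with 1 match each. No window was taken for *Lox*, *Loxl1*, *Loxl2*, *Loxl3* and *Plod2*, so their matches are not known. Of 32851 such windows 38.6% had at least 1 match and 16.7% at least 2. A match is a run of letters and was not tested as a binding site.

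The level per length, from CPM and the gene lengths in the deposited table, ordered the genes in the controls as *P4ha1* (63.4 CPM per kb), *Plod3* (19.7), *P4ha2* (11.9), *Plod1* (8.61), *Plod2* (3.46), *Loxl2* (3.37), *Loxl1* (1.83), *Lox* (0.287), *Loxl3* (0.24) and *Loxl4* (0.161). Among these neighbours the ranges over the 4 controls were apart for *P4ha1* above *Plod3* and for *Loxl1* above *Lox*, and the others overlapped. In the mutants the order was *P4ha1* (146 CPM per kb), *P4ha2* (32), *Plod3* (26.8), *Plod1* (16.5), *Plod2* (15.3), *Loxl2* (6.03), *Loxl1* (5.71), *Lox* (1.55), *Loxl3* (0.617) and *Loxl4* (0.343). There the ranges were apart for *P4ha1* above *P4ha2*, *Plod3* above *Plod1*, *Loxl1* above *Lox* and *Lox* above *Loxl3*. The hydroxylases thus stood above the lysyl oxidases by mean level per kb in both genotypes. In the controls *Plod2* and *Loxl2* were nearly tied, with *Plod2* higher per kb in 2 of the 4 libraries. By CPM the control mean of *Loxl2* (17.8) was above that of *Plod2* (12.8). *P4ha1* alone made up 43.6 to 59.5% of the summed CPM of the 10 genes in every library. The balance within a family shifted between libraries for the lysyl hydroxylases, where the ratio of *Plod2* to *Plod3* per kb was 0.169, 0.0767, 0.0506 and 0.372 in the controls and 0.537, 0.655, 0.121 and 0.978 in the mutants. The ratio of *P4ha1* to *P4ha2* per kb stayed between 3.99 and 6.24.

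When each gene was centred on its own mean over the 8 libraries on the log2 CPM scale, *P4ha1* and *P4ha2* were the closest pair of the 10, with a mean absolute difference of 0.199. *P4ha1*, *P4ha2* and *Plod2* shared a shape that was high in mutants 1, 2 and 4, intermediate in control 4 and low in mutant 3 and the other controls. Among 13497 genes outside the 10 with a mean CPM of at least 1, the nearest to *P4ha1* were *Pgm2* (0.0761), *Gpi1* (0.102), *Egln1* (0.146) and *Aldoa* (0.149), 3 enzymes of sugar metabolism and the oxygen sensor of the hypoxia-inducible factors. The nearest to *Plod2* were *Ldha* (0.0982), which encodes lactate dehydrogenase A, *Mif* (0.177), *Gys1* (0.192) and *Gpr35* (0.22). *Lox* and *Loxl1* had other neighbours. The nearest to *Lox* were *Mrap* (0.278), *Cd109* (0.334), *Col1a1* (0.354) and *Foxs1* (0.365), and those to *Loxl1* were *Col6a3* (0.208), *Fblim1* (0.216), *Sox10* (0.224) and *Aebp1* (0.228). These are descriptions over 8 libraries that share depth and cell makeup, with no test.

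**Figure D3:**
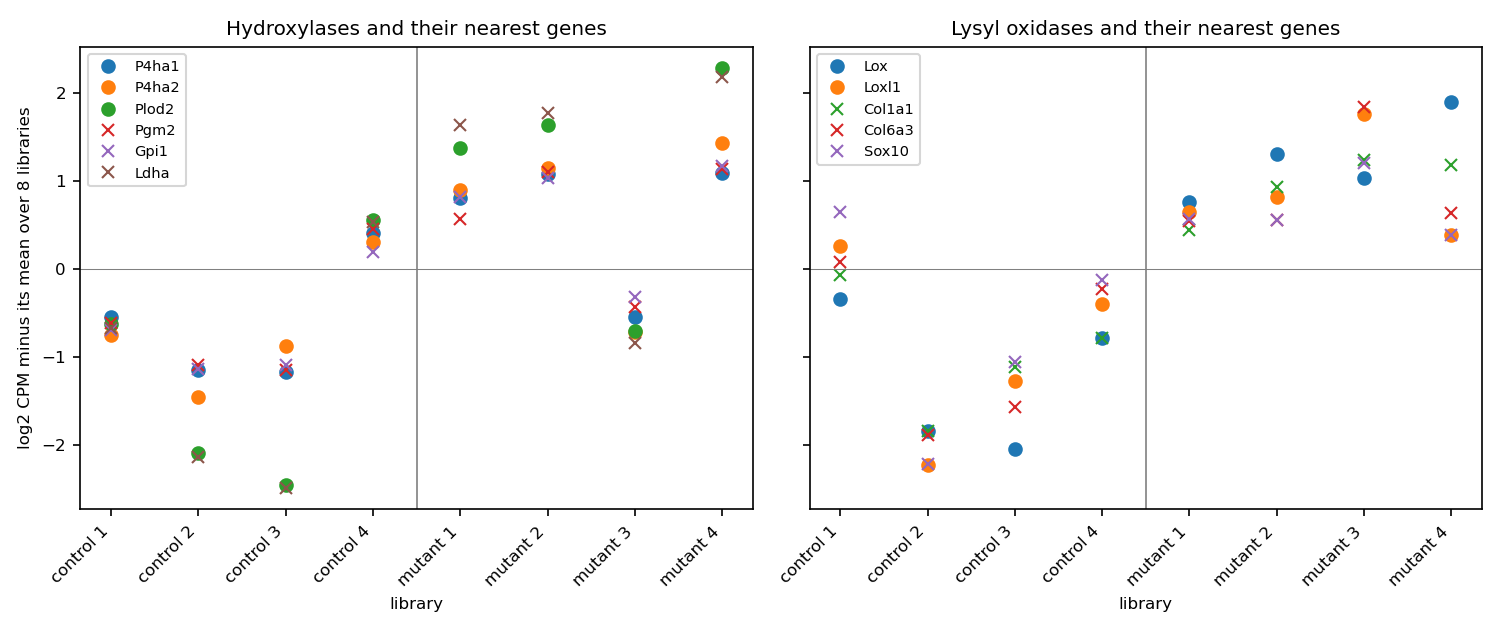
Log2 CPM minus the mean of each gene over the 8 libraries (vertical axis) by library (horizontal axis). Shown are *P4ha1*, *P4ha2* and *Plod2* (left) and *Lox* and *Loxl1* (right) as circles, with some of their nearest genes as crosses. In mutant 3, *P4ha1*, *P4ha2* and *Plod2* lie below 0 and *Lox* and *Loxl1* above 0. The members not drawn do not all follow their family. In mutant 3 *Plod1* was at 0.29, *Plod3* at 0.28, *Loxl2* at -0.05, *Loxl3* at 1.35 and *Loxl4* at 0.31.

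The other genes of the pathway were described from lists by their role. Of 16 partners of the hydroxylases and collagen folding factors of the endoplasmic reticulum, 15 were tested, 11 of them with a higher and 4 with a lower fitted level. With p below 0.05 before adjustment 6 were higher and 1 lower. Their median log2 fold change was 0.18. That of the 10 enzymes was higher, but these were chosen with this contrast known, so nothing is read from the gap. The smallest p values were those of the collagen chaperone *Serpinh1* (0.80, SE 0.21), the hydroxylysine galactosyltransferases *Colgalt1* (0.55, SE 0.16) and *Colgalt2* (0.97, SE 0.37), and the prolyl isomerase *Fkbp10* (1.47, SE 0.48), all as log2 fold changes. Of 22 collagen chains, the substrates, 20 had a higher fitted level (50.2% of all genes). By the same p 15 were higher and 0 lower (6.8% and 7.19% of all genes). Also 15 lay wholly above the controls, as 4.4% of all genes did. The median of the collagen chains was 1.10 (0.61 in the smaller and 1.63 in the larger libraries). *Col1a1* was at 54.4 ± 27.4 CPM in the controls and 189 ± 43.3 CPM in the mutants (SD, n = 4; log2 fold change 1.80), and *Col1a2*, *Col6a1* and *Col6a2* had log2 fold changes of 1.56, 1.31 and 1.31.

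Of 16 genes of procollagen processing and fibril assembly, 11 were higher and 0 lower by the same p, with a median of 1.33. They were led by the small proteoglycan *Bgn* (47.4 ± 5.40 and 122 ± 20.02 CPM, SD, n = 4; log2 fold change 1.37, SE 0.14, adjusted p = 0.110 in edgeR, the smallest of all genes), *Lum* (1.53), the procollagen N-proteinase *Adamts2* (1.48) and *Postn* (1.41). Of 16 elastic fibre genes, the other substrate of the lysyl oxidases, 6 were higher and 1 lower, with a median of 1.11 that was 0.21 in the larger libraries. *Efemp2*, which brings LOX to elastic fibres, was higher by a log2 fold change of 0.69 (SE 0.15), *Fbn1* by 1.94, *Mfap5* by 2.79 and *Fbln5* by 1.22. Of 9 genes of copper supply, the cofactor of the lysyl oxidases, 2 were higher and 1 lower, with a median of -0.05. That median took the other sign with a term for library set (0.13) and without control 2 (0.13). Under total counts it was 0.14, where the median over all genes was 0.15. *Atp7a*, which loads copper onto secreted enzymes, was lower in every mutant than in every control (153 ± 48.6 and 103 ± 11.2 CPM, SD, n = 4; log2 fold change -0.58, SE 0.21). *Atox1* was higher in every mutant (0.84), while the values of *Atp7b* (1.64) and *Slc31a2* (0.12) overlapped between genotypes. None of these lists held a gene that edgeR called, as edgeR called 0% of all genes. The genes at an unadjusted p below 0.05 over all genes were again 6.8% higher and 7.19% lower. DESeq2 called 9 of the collagen chains, 6 of the procollagen processing genes and 4 of the elastic fibre genes, all higher. It called 0 of the copper supply genes and 0 of the hydroxylase partners, and 110 of the 15233 genes tested as higher.

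Of 26 other hypoxia targets, 26 had a higher fitted level (50.2% of all genes) and 17 were higher at an unadjusted p below 0.05 (6.8% of all genes), with a median of 1.49. Of the 26, 1 (*Stc2*) lay wholly above the controls, as 4.4% of all genes did. DESeq2 called 4 of the 26, all higher, and 110 of all genes as higher. By library, the median of these 26 genes on the centred log2 scale was -0.66, -1.16, -1.25 and 0.19 in the controls and 1.03, 1.30, -0.80 and 1.48 in the mutants. It was thus highest of the controls in control 4, though below mutants 1, 2 and 4, and lowest of the mutants in mutant 3. For *P4ha1* and *P4ha2* mutant 3 lay below control 4, and for *Plod2* below controls 1 and 4. A link between this list and the hydroxylases was not tested. The median log2 fold change of this list was 1.28 in the smaller and 0.22 in the larger libraries. For the collagen chains the library medians were -0.06, -0.99, -0.87 and -0.40 in the controls and 0.34, 0.48, 0.83 and 0.66 in the mutants, with mutant 3 highest. *Aldoc* (1.38), *Stc2* (1.50), *Pgk1* (1.64) and *Ddit4* (0.90) had the smallest p values among the hypoxia targets. With a term for library set the log2 fold changes were 0.86 for *P4ha1*, 0.999 for *P4ha2* and 1.68 for *Plod2*, against 1.20, 1.43 and 2.14 without it.

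**Figure D4:**
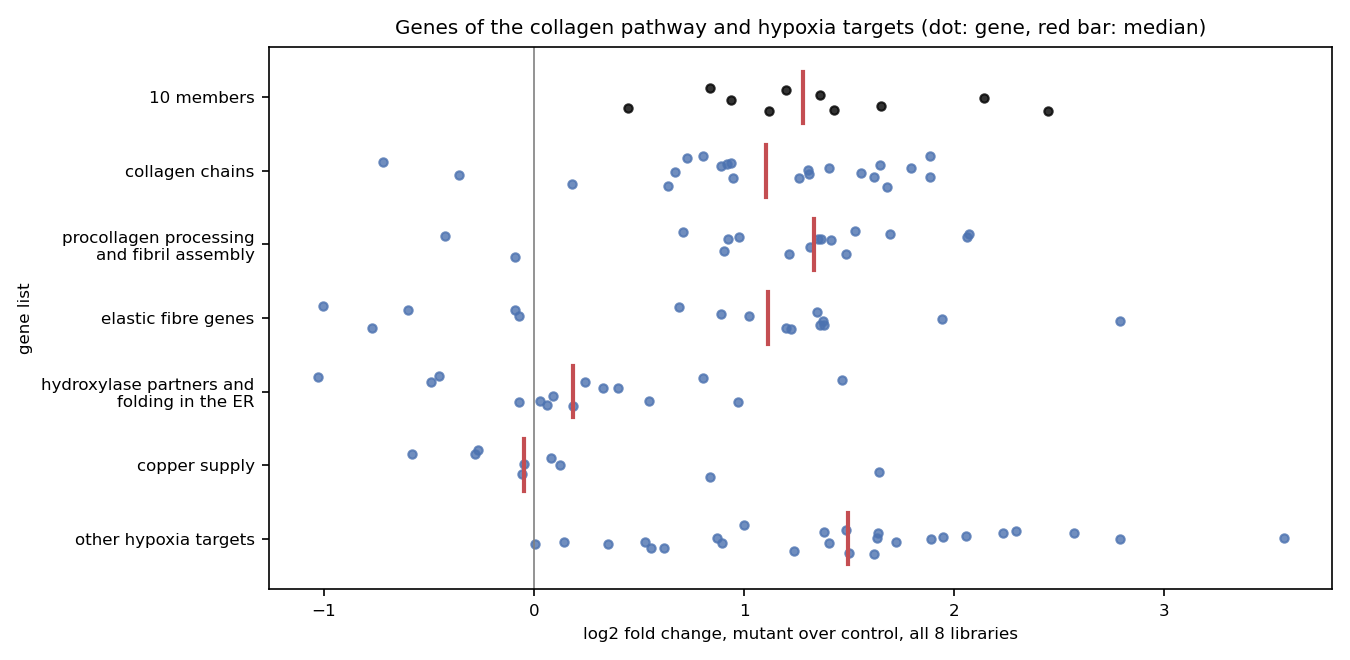
Log2 fold change (mutant over control, all 8 libraries, horizontal axis) of each tested gene (dots) by gene list (vertical axis), with the median of each list as a red bar. The 10 enzymes, chosen with this contrast known, have a median of 1.28. The collagen chains have 1.10 and the other hypoxia targets 1.49, and copper supply genes lie around 0.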

How the data were processed

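RNA from islets was sequenced with 50-base single-end reads in 4 control and 4 mutant libraries. Per gene and library, the authors deposited raw read counts, made by trimming with Trimmomatic and FASTP, aligning to mm10 with STAR and counting with featureCounts at default parameters, without strand. STAR, featureCounts, edgeR and the build GRCm38 appear in the submitters' processing notes, and versions are not given in the sources used here. A deposited table of the authors' own comparison (log2 fold changes, p-values, FDR and CPM) was not used.

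Genes with enough counts (15233) were compared by edgeR 4.0.16 in R 4.3.3, using its quasi-likelihood test (TMM scaling, genotype as the only term, Benjamini-Hochberg adjustment). The study's unnamed batch correction was not used. SE is the size of the log2 fold change divided by the square root of F. For summed marker levels an exact permutation test, two-sided, was used. Alternatives were DESeq2 1.42.0, the edgeR likelihood ratio test, other scalings and filters, terms for library set, sex and replicate number, subsets by depth, and leaving out each library. The quasi-likelihood, interaction and DESeq2 tests were checked on simulated counts.

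The members and gene lists were chosen with earlier results of these data known. Named are all members, *Itgb1*, the 4 genes of smallest p in each pathway list, and the 4 genes nearest in pattern to *Lox*, *Loxl1*, *Plod2* and *P4ha1*. *P4hb*, *Htra2* and *Znhit1* were added for their role or position, after their values were seen. Promoters of 5 members were taken from the RefSeq table, which had no entry for *Loxl1*, *Loxl2*, *Loxl3* and *Plod2*. Promoters on chr18, where *Lox* lies, were not used. Total counts of 35.1 to 67.6 M set the precision, so genes under 1 CPM rest on few counts. A total of 26 symbols had been turned into dates and were left so. Same-numbered controls and mutants deviated from their group means with correlations of 0.42, -0.01, 0.46 and 0.25 for replicates 1 to 4. Libraries of different numbers were not compared, so these values cannot settle whether the numbers pair libraries. The main fit did not pair them, and a fit with a replicate block is given below.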

Additional observations from a re-analysis of the deposited data

Results flagged for a closer look

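*Loxl3* in control 3 stood apart from the other controls, at 1.52 CPM against 0.835 CPM in the nearest (Dixon's ratio 0.893). The 10 genes in 2 genotypes gave 20 groups of 4 libraries for this check, and chance alone flags about 1 in 20. The log2 fold change of *Loxl3* without control 3 was 1.68.

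The log2 fold change of *Loxl1* was 0.66 in the 5 libraries of under 50 M counts and 3.51 in the 3 larger ones. The test of the difference gave 2.79 (SE 0.51, adjusted p = 0.025, edgeR interaction test), which 11.4% of all genes passed and 1 of the 10 members. The larger set holds a single mutant library, so that set and that library cannot be told apart, and it is also a female library by *Xist* and *Ddx3y*, as is control 3.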

How the results depend on the processing

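All 10 members stayed higher in the mutants under each scaling, filter, test and subset tried, and no call was made by edgeR's quasi-likelihood test under another scaling or filter. The number of genes called was 0 in the main analysis, 186 with DESeq2, 91 with the likelihood ratio test, 3 with a term for library set and 10 in the 5 smaller libraries. Of the members DESeq2 called 2 and the likelihood ratio test called 1 (*Lox*). Genes at an unadjusted p below 0.05 numbered 2132, 3630 in the 5 smaller libraries, and 1214 to 2913 when each library was left out, with 1243 when control 2 was left out, and 1249, 1420 and 1214 when mutants 1, 2 and 4 were. No gene was called without any 1 library. Of the members 6 to 9 were at an unadjusted p below 0.05 (9 with all libraries and in the 5 smaller ones, 6 without mutant 4), and 5 to 9 had groups that did not overlap (5 with all libraries, 9 without mutant 3). Of all genes 4.4% had every mutant above every control with all libraries. That share was not counted with a library left out, where groups separate more easily, so nothing is read from the rise to 9. With a replicate block 0 genes were called, 2782 were at an unadjusted p below 0.05, and so were all 10 members. An older form of that quasi-likelihood test, which is edgeR's default here and was run first, gave 0 calls and 2025 genes at an unadjusted p below 0.05. The newer form was then adopted, after both results had been seen, to match the earlier processing of these data. List medians moved by more than their spread between libraries in the 3 larger libraries (procollagen processing 0.90, collagen chains 1.63, elastic fibres 0.21, copper supply 0.12, hypoxia targets 0.22), in the 5 smaller ones (collagen chains 0.61, copper supply 0.17), with a term for library set (elastic fibres 0.69, copper supply 0.13) and with total counts (copper supply 0.14). Leaving out each library in turn gave medians of 1.14 to 1.43 for procollagen processing, 1.04 to 1.38 for collagen chains, 0.61 (without mutant 1) to 1.40 for elastic fibres, -0.20 to 0.13 (without control 2) for copper supply, 1.28 to 1.95 for hypoxia targets and 0.11 to 0.27 for the hydroxylase partners. Under total counts the median over all genes moved as well, to 0.15. The cause of these shifts was not tested. Genes under 1 CPM, such as *Loxl4* in the controls, are limited by depth.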
